A study of Mus musculus with 380 samples.

Results

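Cell cycle genes from S phase to mitosis were followed in T cells taken from B16F10 tumours, a transplantable mouse melanoma, in C57BL/6 mice. The set is a list of 59 gene symbols, and all 59 were found among the 23420 symbols of the deposited expression table. For the per-cell counts, 10 of them were taken as replication members (Mcm2 to Mcm7, Pcna, Tyms, Rrm1 and Rrm2) and 10 as mitosis members (Ccnb1, Ccnb2, Plk1, Cenpa, Cenpe, Cenpf, Kif11, Kif20a, Kif22 and Kif23). The 4 groups were CD8 cells labelled knockout (KO) for Il27ra, wild-type (WT) CD8 cells, CD4 cells labelled KO, and WT CD4 cells. Il27ra encodes a chain of the receptor for interleukin-27. Each group was 1 plate processed by Smart-seq2, a plate protocol for RNA of single cells, with 94 of these and 1 population well (many cells in 1 library). Sample titles give a single code for each genotype, KO4 or WT4, and the labels give no age, no allele and no second animal. The WT CD4 titles carry p2 where the other plates carry p1, and the treatment text speaks of CD8+ cells only. With 1 plate a group there was no replicate, so no test between groups was run, and genotype, plate and animal cannot be told apart.

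A dividing T cell first loads the Mcm2 to Mcm7 helicase onto its DNA, then copies it with Pcna as the sliding clamp, while Tyms, Rrm1 and Rrm2 supply the nucleotides. These genes are switched on late in G1 by E2F factors. The cyclins, kinases, kinesins and centromere proteins of mitosis come later, and in mammals many carry a promoter element called CHR beside CCAAT boxes, through which the DREAM and MuvB complexes act. T cells in tumours that carry the checkpoint receptor PD-1, encoded by Pdcd1, range from Tcf7-expressing precursors to differentiated cells, and Foxp3 marks regulatory CD4 T cells.

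The promoters of 2 replication and 2 mitosis members are shown because they differ in these elements. They are RefSeq sequences on GRCm38.p6, from 160 bases before to 10 bases after the annotated start, on the strand of the gene. The first 2 are of Mcm5 (chr8:75109349-75109518, plus strand) and Mcm6 (chr1:128359696-128359865, minus strand). The last 2 are of Ccnb2 (chr9:70421545-70421714, minus strand) and Kif11 (chr19:37376222-37376391, plus strand), which encode a mitotic cyclin and a spindle motor. Capitals mark whole matches to an E2F motif (TTTCCCGC, TTTCGCGC, TTTGCCGC or TTTGGCGC), to CHR (TTTGAA or TTCGAA) or to CCAAT, on either strand, and matches that overlap run together.
Mcm5: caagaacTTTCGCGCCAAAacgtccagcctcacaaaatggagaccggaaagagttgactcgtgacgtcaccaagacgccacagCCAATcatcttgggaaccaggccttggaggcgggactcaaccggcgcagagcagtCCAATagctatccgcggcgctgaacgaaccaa
Mcm6: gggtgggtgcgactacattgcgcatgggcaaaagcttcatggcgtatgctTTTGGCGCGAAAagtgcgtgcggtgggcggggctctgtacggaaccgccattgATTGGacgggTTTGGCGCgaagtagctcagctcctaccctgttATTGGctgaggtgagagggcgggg
Ccnb2: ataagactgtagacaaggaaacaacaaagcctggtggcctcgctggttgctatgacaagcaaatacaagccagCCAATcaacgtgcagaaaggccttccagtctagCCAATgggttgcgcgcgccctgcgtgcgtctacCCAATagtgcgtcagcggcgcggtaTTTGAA
Kif11: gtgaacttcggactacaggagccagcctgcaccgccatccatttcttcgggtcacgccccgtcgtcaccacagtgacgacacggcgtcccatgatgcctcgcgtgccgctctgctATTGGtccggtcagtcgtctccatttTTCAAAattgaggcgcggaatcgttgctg

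The E2F matches of Mcm5 lie on opposite strands and overlap, farther from the start than its CCAAT boxes at 77 and 22 bases before it. Mcm6 has such an overlapping pair, the first of it at 110 bases before the start, and a further match at 47 bases. Kif11 has a CHR match on the minus strand, 19 bases before the start, and 1 CCAAT box on the same strand at 45 bases. Ccnb2 has 3 CCAAT boxes at 87, 54 and 21 bases before the start and a CHR match 5 bases into the transcript. Over the whole window of 250 bases before to 50 after the start, 49 of the 59 members had an entry. An E2F match was present for 4 of 9 replication members and 0 of 9 mitosis members, against 2.61% of all 27025 genes with an entry. CHR was present for 2 of 9 replication members and 7 of 9 mitosis members, against 21.7% of all genes. CCAAT was present for 8 of 9 and 9 of 9, against 41.1% of all genes. All 7 mitosis members with CHR also had CCAAT, a pair held by 8.61% of all genes. A match is a description of the letters in this window only.

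Expression is given as FPKM, fragments of a gene per kilobase of its transcript, relative to the size of the library, with TMM scaling across libraries by the authors. A gene counted as detected above FPKM 1, and cells with fewer than 1000 detected genes were left out. This left 80 KO-labelled CD8, 72 WT CD8, 73 KO-labelled CD4 and 79 WT CD4 cells. The median number of genes detected was 2507.5, 3167.5, 2218 and 2045 in that order, and 7.50%, 36.1%, 6.85% and 5.06% of kept cells had more than 4000. The files give no read counts, so depth is stated through genes detected. Il27ra was detected in 61.3% of KO-labelled CD8 cells, 65.3% of WT CD8 cells, 47.9% of KO-labelled CD4 cells and 43.04% of WT CD4 cells. The population wells had 85.3 and 157.02 FPKM of Il27ra for KO-labelled and WT CD8, and 72.7 and 243.4 FPKM for KO-labelled and WT CD4. Gene-level values do not show which exons were read, so the knockout cannot be checked from them, and the groups are called by their label. Cd8a was detected in 90% of KO-labelled CD8, 84.7% of WT CD8, 4.11% of KO-labelled CD4 and 5.06% of WT CD4 cells, and a CD3 chain in 97.3% to 100% depending on the plate.

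All 59 members were detected in at least 10% of kept cells on 1 or more plates, the filter for comparisons, which 9081 genes passed. For 17 of them the WT CD8 plate alone reached 10%, and 33 members reached it on all 4 plates. The highest share of cells stood on the WT CD8 plate for 55 members. The exceptions were Ccnd2, Ccnd3, Ube2c and Tubb5.

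**Figure D1:**
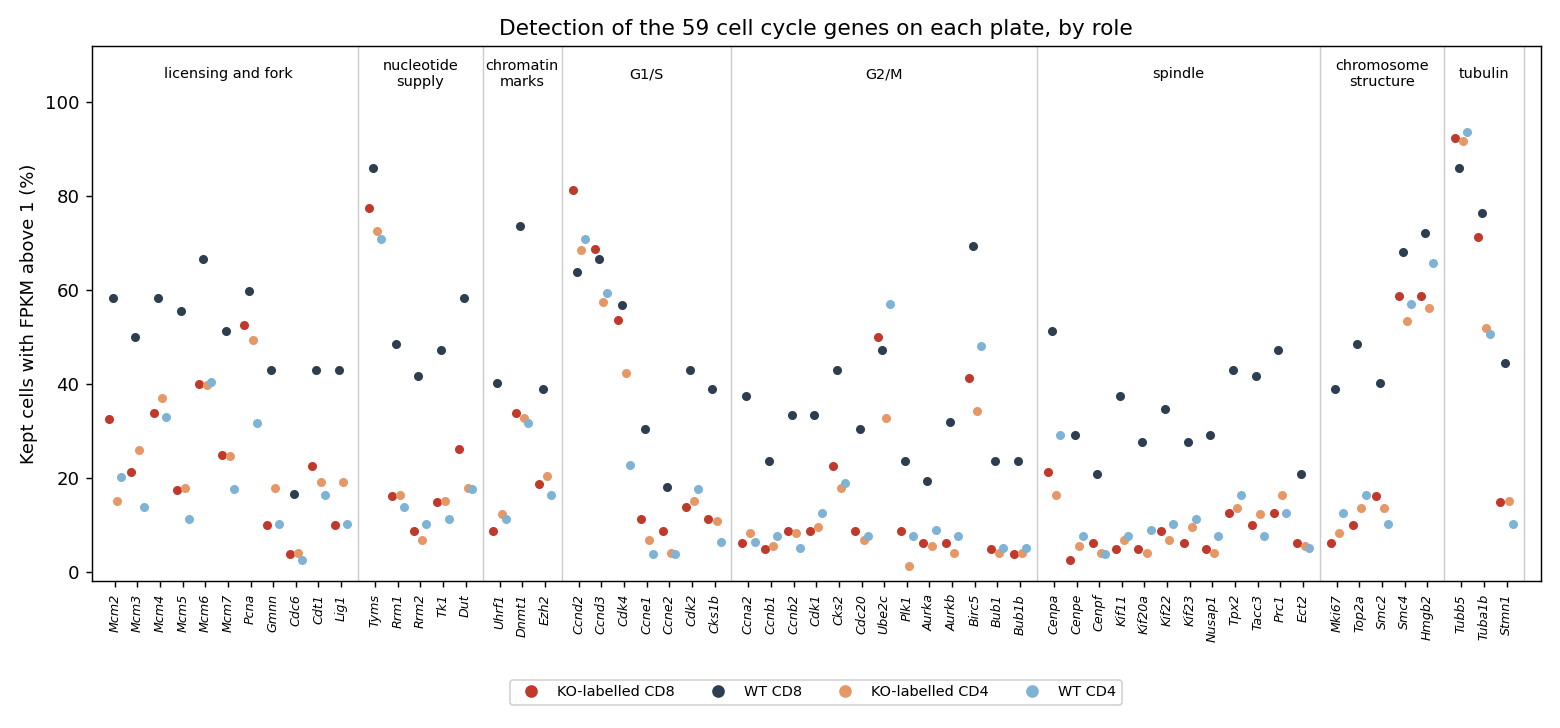
Share of kept cells with FPKM above 1 (vertical axis, percent) for each of the 59 genes, grouped by role, with 1 point per plate. The WT CD8 point is the highest for 55 genes, while Tubb5 lies between 86.1% and 93.7% on all plates.

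Among licensing and fork genes, the level was highest for Mcm6, a subunit of the replicative helicase, and for Pcna. Mcm6 was detected in 40% of KO-labelled CD8 cells (exact 95% interval 29.2 to 51.6, counting error only), 66.7% of WT CD8 cells (54.6 to 77.3), 39.7% of KO-labelled CD4 cells (28.5 to 51.9) and 40.5% of WT CD4 cells (29.6 to 52.1). Its lowest, median and highest FPKM were 0, 0 and 2193 in KO-labelled CD8 cells and 0, 296.8 and 1671 in WT CD8 cells. Only on the WT CD8 plate did more than 50% of the cells have Mcm6, although single cells above FPKM 1000 occurred on every plate. In CD4 cells the Mcm6 values were 0, 0 and 1681 for the KO label and 0, 0 and 1609 for WT.

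Mcm5, another helicase subunit, was detected in 17.5% of KO-labelled CD8, 55.6% of WT CD8, 17.8% of KO-labelled CD4 and 11.4% of WT CD4 cells. Its median FPKM was 0, 6.03, 0 and 0 in the same order, and its highest was 1360, 1339, 1216 and 937.4. The plates thus overlapped in the range of Mcm5 and differed in how many cells had it. Pcna was detected in 52.5%, 59.7%, 49.3% and 31.6% of cells, so that the CD8 plates lay closer for it than for Mcm5. The other helicase subunits shared the high share on the WT CD8 plate. Mcm7 was detected in 25% of KO-labelled CD8, 51.4% of WT CD8, 24.7% of KO-labelled CD4 and 17.7% of WT CD4 cells. Mcm2 was detected in 32.5%, 58.3%, 15.1% and 20.3%, Mcm3 in 21.3%, 50%, 26.03% and 13.9%, and Mcm4 in 33.8%, 58.3%, 37% and 32.9%. Gmnn, which encodes geminin, the inhibitor of relicensing, was detected in 10%, 43.1%, 17.8% and 10.1%.

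All 5 nucleotide supply genes were detected most often in WT CD8 cells. Rrm2, the regulated subunit of ribonucleotide reductase, was detected in 8.75% of KO-labelled CD8 (median 0, highest 2890 FPKM), 41.7% of WT CD8 (median 0, highest 3236), 6.85% of KO-labelled CD4 (median 0, highest 4071) and 10.1% of WT CD4 cells (median 0, highest 1643). Rrm1, the large subunit, was detected in 16.3%, 48.6%, 16.4% and 13.9%, and Dut, a dUTPase, in 26.3%, 58.3%, 17.8% and 17.7%. Tyms, thymidylate synthase, looked different at FPKM 1, with 77.5%, 86.1%, 72.6% and 70.9% of cells. Its median level where detected was 4.58, 19.5, 4.15 and 4.02 FPKM, and above FPKM 10 its shares were 15%, 50%, 15.1% and 11.4%. Birc5 (survivin) and Ube2c, an E2 enzyme of the anaphase-promoting complex, were likewise often listed at a few FPKM outside WT CD8. Above FPKM 10, Birc5 was found in 6.25% of KO-labelled CD8, 41.7% of WT CD8, 5.48% of KO-labelled CD4 and 6.33% of WT CD4 cells, and Ube2c in 7.50%, 30.6%, 5.48% and 7.59%.

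Copying of chromatin marks was represented by Dnmt1, the maintenance DNA methyltransferase, by its partner Uhrf1 and by Ezh2, a histone methyltransferase. Dnmt1 was detected in 33.8% of KO-labelled CD8, 73.6% of WT CD8, 32.9% of KO-labelled CD4 and 31.6% of WT CD4 cells. Uhrf1 was detected in 8.75%, 40.3%, 12.3% and 11.4%, and Ezh2 in 18.8%, 38.9%, 20.5% and 16.5%.

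The D-type cyclins of G1 broke this order. Ccnd2, a partner of Cdk4 and Cdk6 that is induced by growth signals, was detected in 81.3% of KO-labelled CD8, 63.9% of WT CD8, 68.5% of KO-labelled CD4 and 70.9% of WT CD4 cells. Its median FPKM was 91, 53.3, 155.3 and 117.5 in that order, so the WT CD8 plate was the lowest for it. Ccnd3 was detected in 68.8%, 66.7%, 57.5% and 59.5%. Cdk4, their kinase, was detected in 53.8%, 56.9%, 42.5% and 22.8% of cells and stood lowest in WT CD4. The E-type cyclins Ccne1 and Ccne2, which act at the entry into S phase, were rare, at 11.3%, 30.6%, 6.85% and 3.80% for Ccne1.

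Most G2 and mitosis genes were found in few cells outside the WT CD8 plate. Ccnb1 and Ccnb2 encode the cyclins that drive mitotic entry with Cdk1, and Ccna2 encodes cyclin A. Ccnb2 was detected in 8.75% of KO-labelled CD8, 33.3% of WT CD8, 8.22% of KO-labelled CD4 and 5.06% of WT CD4 cells, with a median of 0 FPKM on every plate and highest values of 780.8, 1515, 592.9 and 2281. Ccnb1 was detected in 5.00%, 23.6%, 5.48% and 7.59%. Plk1, a mitotic kinase, was detected in 8.75%, 23.6%, 1.37% and 7.59% of cells, the first of which is 7 cells and the third 1 cell. Ccna2 was detected in 6.25%, 37.5%, 8.22% and 6.33%, and Cks2, a small binding partner of Cdk1, in 22.5%, 43.1%, 17.8% and 19%.

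Among centromere, kinesin and spindle genes, Cenpa, the centromeric histone H3 variant, was the most often detected, in 21.3% of KO-labelled CD8, 51.4% of WT CD8, 16.4% of KO-labelled CD4 and 29.1% of WT CD4 cells. Kif11 was detected in 5.00%, 37.5%, 6.85% and 7.59%, and Kif22, a chromosome-bound kinesin, in 8.75%, 34.7%, 6.85% and 10.1%. Kif20a was detected in 5.00%, 27.8%, 4.11% and 8.86%, and Kif23, which like it acts in the division of the cell body, in 6.25%, 27.8%, 9.59% and 11.4%. Cenpe, a motor at the kinetochore, was detected in 2.5%, 29.2%, 5.48% and 7.59%, and Cenpf, another kinetochore protein, in 6.25%, 20.8%, 4.11% and 3.80%. Tacc3, which binds spindle microtubules, was detected in 10%, 41.7%, 12.3% and 7.59%. Mki67, the proliferation marker Ki-67, was detected in 6.25% (2.06 to 14), 38.9% (27.6 to 51.1), 8.22% (3.08 to 17.04) and 12.7% (6.24 to 22.05). Top2a, the DNA topoisomerase that untangles chromosomes, was detected in 10%, 48.6%, 13.7% and 16.5%.

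Hmgb2, Smc4, Tubb5 and Tuba1b were found in more than 50% of the kept cells of each plate. Hmgb2, a chromatin protein, was detected in 58.8%, 72.2%, 56.2% and 65.8% of KO-labelled CD8, WT CD8, KO-labelled CD4 and WT CD4 cells, and Smc4, a condensin subunit, in 58.8%, 68.1%, 53.4% and 57%. Tuba1b, an alpha-tubulin, had the highest mean of the set, 1343 FPKM over all kept cells, and Tubb5, a beta-tubulin, had 918.4. The tubulin genes have near-identical relatives, so their values depend on how reads were shared between copies. Stmn1, a tubulin-binding protein of dividing cells, was detected in 15%, 44.4%, 15.1% and 10.1%.

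In CD8 cells, 57 of the 59 members were lower on the KO-labelled than on the WT plate, as were 75.7% of all 9081 genes. Values are differences, KO-labelled minus WT, in log2(FPKM + 1) averaged over the kept cells of a plate. At least 1 unit lower were 49 of the 59 members, against 14.3% of all genes. The median member difference was -1.85, against -0.34 for all genes. The replication members had a median of -2.52 and all 10 passed 1 unit, and the mitosis members had a median of -1.57 with 9 of 10 past 1 unit. However, 7 of these 10 mitosis members passed the filter through the WT CD8 plate alone, where they were high, so that the filter itself favours lower values for the KO label. Only Cenpa of the mitosis members was found in at least 10% of cells on every plate, and it had -2.505. The lowest values were those of Mcm5 (-2.93), Dut (-2.90), Top2a (-2.84), Stmn1 (-2.80) and Dnmt1 (-2.73). Over the 33 members found in at least 10% of cells on every plate, 31 were lower, 28 of them by at least 1 unit, against 75% and 17.7% of the 5767 genes held to the same limit.

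Of the 59 members, Ccnd2 and Ccnd3 were the 2 that were higher in KO-labelled CD8 cells. Ccnd2 averaged 5.64 in KO-labelled and 4.21 in WT cells on this scale, a difference of 1.42, and 2.25% of all genes were at least 1 unit higher. Ccnd3 averaged 5.51 in KO-labelled and 5.20 in WT cells, a difference of 0.31. Tubb5 (-0.29), Ccne2 (-0.48) and Cdk4 (-0.50) were the least reduced of the others. The share of cells that had a member was lower for 55 members in KO-labelled cells. The median level among cells that had it was lower for 37 and higher for 22. For Rrm2 it was 1672 FPKM in 7 KO-labelled cells and 578.9 FPKM in 30 WT cells. Neither the count by share of cells nor that by median level was computed over all genes.

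The number of genes detected moved with this comparison, and its part in the result was not tested. Values in restricted sets of cells follow. Without cells above 4000 genes, 74 KO-labelled and 46 WT cells remained, the median member difference was -0.21 and 5 members were at least 1 unit lower. With 45 cells of each label matched one to one on genes detected, within 10%, the median was -0.44 and 9 members were at least 1 unit lower. The share of all genes at least 1 unit lower was not computed in these restricted sets, so both counts lack a background. Both restrictions also took out cells rich in mitosis members, as given below, so they do not separate genes detected from the members themselves.

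The CD8 population wells also gave lower values for the KO label in most members. A cell value is a mean of logs over kept cells and a well value the log of 1 library, so their sizes are not compared. In these bulk libraries fewer cells of a type and less RNA per cell cannot be told apart. Mcm5 had 186.4 FPKM in the KO-labelled well and 507.4 FPKM in the WT well. Mki67 had 14.6 and 35.1 FPKM, Top2a 60.1 and 129.9 FPKM, and Plk1 18.4 and 100.5 FPKM in the KO-labelled and WT wells. Ccnd2 had 255.1 FPKM in the KO-labelled well and 127.1 FPKM in the WT well. Of the 59 members, 53 were lower in the KO-labelled well, against 47.2% of all genes, and 6 higher, with a median of -0.81 on the log2(FPKM + 1) scale against 0.03 for all genes. At least 1 unit lower were 23 members, against 10.5% of all genes, and 0 members were at least 1 unit higher, against 12.9%. Aurka, Nusap1, Ect2 and Smc4 were lower in KO-labelled cells and higher in the KO-labelled well. The replication members had a well median of -1.23, with 6 of 10 past 1 unit, and the mitosis members -0.62, with 2 of 10. Well libraries also held other cells, with 1271 FPKM of summed myeloid markers in the KO-labelled and 2391 FPKM in the WT CD8 well, and 0 and 4230 FPKM of red cell markers. Summed dendritic markers were 1957 FPKM in the KO-labelled and 5309 FPKM in the WT CD8 well. The part of these cells in the well values was not tested.

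In CD4 cells the members divided evenly, with 30 lower and 29 higher in KO-labelled than in WT cells, while 40.9% of all genes were lower. Their median was -0.01, against 0.07 for all genes. No member was at least 1 unit lower, against 0.782% of all genes, and 1 was at least 1 unit higher, against 4.56%. This was Cdk4, which averaged 3.55 in KO-labelled and 1.94 in WT CD4 cells, a difference of 1.62. Over the 33 members found on every plate, 11 were lower and 22 higher, against 38.9% and 61.1% of the genes held to that limit. Of these 33 members 0 were at least 1 unit lower, against 1.18%, and 1 at least 1 unit higher, against 6.57%. After Cdk4 came Pcna (0.93), Mcm3 (0.74), Lig1, a DNA ligase, (0.69) and Gmnn (0.59). The lowest were Cenpa (-0.80), Ube2c (-0.65), Hmgb2 (-0.59), Plk1 (-0.50) and Mcm2 (-0.37). Of the replication members 8 of 10 were higher in KO-labelled cells, with a median of 0.16. Of the mitosis members 9 of 10 were lower, with a median of -0.18. Among those found on every plate, 8 of 9 replication members were higher, and the only mitosis member, Cenpa, was lower.

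In the CD4 wells 7 of 10 replication members were lower for the KO label, with a median of -0.30. Cdk4 had 288.7 FPKM in the KO-labelled and 488.3 FPKM in the WT CD4 well, and Pcna 241.5 and 444.1 FPKM, so both were lower in the KO-labelled well and higher in KO-labelled cells. The mitosis members had a well median of -0.98, with 9 of 10 lower and 5 past 1 unit. Plk1 had 37.3 FPKM in the KO-labelled and 159.5 FPKM in the WT CD4 well, and Kif20a, a kinesin of cell division, had 23.3 and 65.1 FPKM. Of all members 45 were lower in the KO-labelled well, against 50.9% of all genes, 10 of them by at least 1 unit, against 10.9%, and 3 were at least 1 unit higher, against 12.1%. Those 3 were Ccne2, Cdc6, a licensing factor, and Ccne1. Summed myeloid markers were 4167 FPKM in the KO-labelled and 91.8 FPKM in the WT CD4 well, and dendritic markers 3622 and 180.1 FPKM, and their part was not tested.

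**Figure D2:**
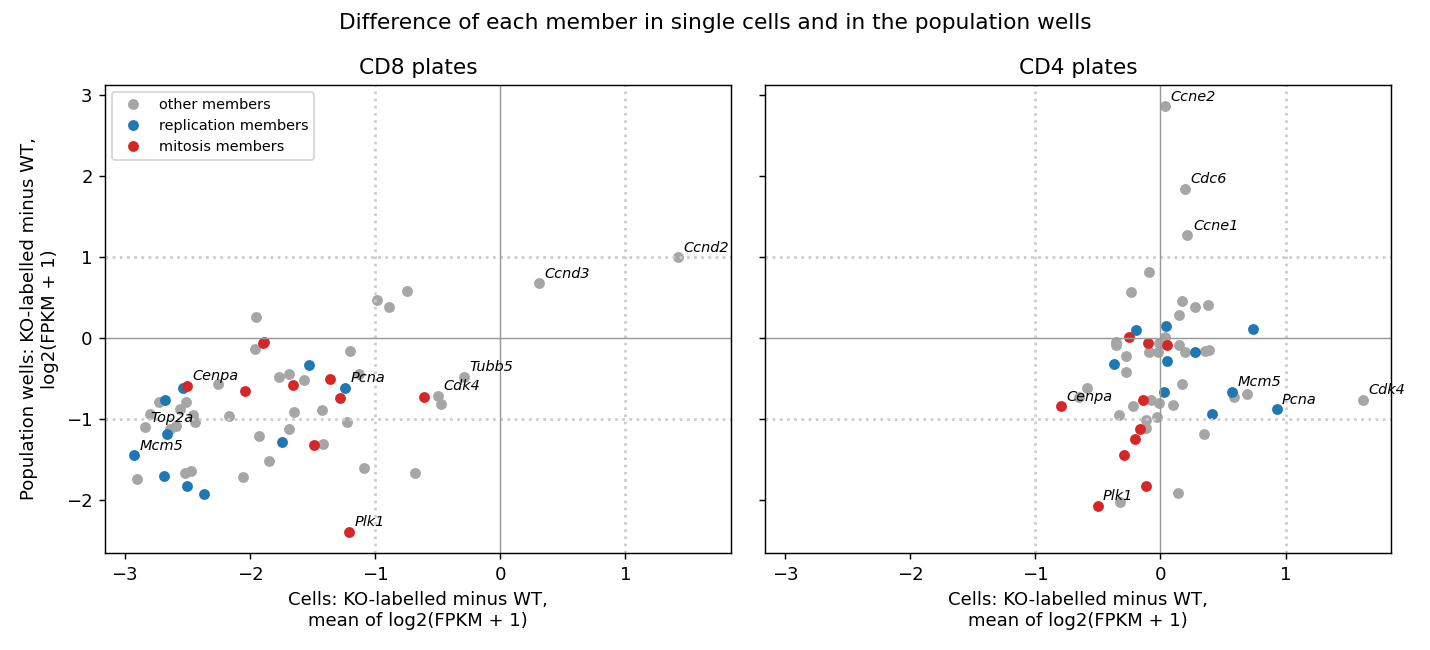
Difference of each of the 59 members, KO-labelled minus WT, in single cells (horizontal axis, mean log2(FPKM + 1) over kept cells) and in the population wells (vertical axis, log2(FPKM + 1)), for CD8 at left and CD4 at right, with dotted lines at 1 unit. Most CD8 points lie below 0 on both axes, while CD4 points lie within 1 unit of 0 in cells apart from Cdk4.

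Further genes of the same processes were examined as lists. Of 33 other replication genes, such as the GINS, polymerase, replication factor C and RPA subunits, all 33 were lower in KO-labelled CD8 cells, 21 by at least 1 unit, with a median of -1.37, against 75.7% and 14.3% of all genes and a median of -0.34. The filter was passed through the WT CD8 plate alone by 11 of them. Of the 10 found in at least 10% of cells on every plate, 10 were lower and 8 by at least 1 unit. Fen1, the flap endonuclease, had -2.43 and 96.4 FPKM in the KO-labelled and 270.8 FPKM in the WT CD8 well. Of 34 other mitosis genes 33 passed the filter, and all 33 were lower, 24 by at least 1 unit, with a median of -1.26. Of these, 22 passed through the WT CD8 plate alone, a choice that favours lower values in KO-labelled cells. Of the 8 found on every plate, 8 were lower and 6 by at least 1 unit. Mad2l1, a spindle checkpoint protein, had -2.56. In CD4 cells 26 of the 33 replication genes were higher in KO-labelled cells, with a median of 0.21. Of the 33 mitosis genes 22 were lower, with a median of -0.06, while 58.8% of all genes were higher and 40.9% lower. Among those found on every plate, 7 of 10 replication genes were higher, with a median of 0.26. Of the 8 such mitosis genes 3 were lower and 5 higher, the opposite order, with a median of 0.06. Of all genes held to that limit 61.1% were higher and 38.9% lower. Of 15 genes that hold back division, 12 passed the filter, and in CD8 cells 9 of them were higher, against 24.3% of all genes, and 3 lower. At least 1 unit higher were 2 of the 12, against 2.25% of all genes, and the median of the list was 0.18. The 3 lower ones were Rbl1 (-0.96), Ccng2 (-0.66) and Cdkn2c (-0.36). Btg2 and Btg1, which are antiproliferative factors, differed by 3.12 and 1.70, and Btg2 had 1586 FPKM in the KO-labelled and 478.7 FPKM in the WT CD8 well. In CD4 cells this list had a median of 0.01, with 7 of its 12 genes higher and 5 lower. At least 1 unit higher were 3 of them, against 4.56% of all genes, and the lowest was Klf2 (-0.50). Cdkn1a, which encodes the inhibitor p21, differed by 1.80, Btg2 by 1.43 and Rbl2 by 1.28.

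Within single cells, replication members were detected more often than mitosis members. Cells with at least 3 of the 10 replication members, called replication-class below, made up 43 of 80 KO-labelled CD8 cells (53.8%, interval 42.2 to 65), 54 of 72 WT CD8 cells (75%, 63.4 to 84.5), 33 of 73 KO-labelled CD4 cells (45.2%, 33.5 to 57.3) and 29 of 79 WT CD4 cells (36.7%, 26.1 to 48.3). Exactly 2 or 3 replication members were found in 46.7% of all kept cells, next to that limit. Tyms, often at a low level, was above FPKM 1 in 70.9% to 86.1% of cells, depending on the plate. With at least 8 of 10, the numbers were 6 KO-labelled CD8, 32 WT CD8, 4 KO-labelled CD4 and 4 WT CD4 cells.

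Cells with at least 3 of the 10 mitosis members, called mitosis-class below, made up 5 of 80 KO-labelled CD8 cells (6.25%, 2.06 to 14), 25 of 72 WT CD8 cells (34.7%, 23.9 to 46.9), 3 of 73 KO-labelled CD4 cells (4.11%, 0.856 to 11.5) and 5 of 79 WT CD4 cells (6.33%, 2.09 to 14.2). Here 24 of all kept cells, 7.89%, had 2 or 3 members. The name describes transcripts and does not place a cell in a phase. Every one of the 38 mitosis-class cells also had at least 3 replication members, and 33 of them had at least 8. No kept cell had at least 3 mitosis members and fewer than 3 replication members. A count of 0 over all plates allows a share of up to 1.21%. The reverse was common, with at least 3 replication and fewer than 3 mitosis members in 39.8% of all kept cells. Cells with fewer than 3 replication members had at most 3570 genes detected. Mitosis-class cells had 2290 to 7014, with a median of 4813.5. Pearson's r between genes detected and replication members was 0.69, 0.86, 0.74 and 0.75 on the plates in the order above. The part of genes detected in the count of 0 was not tested. The full set of 10 mitosis members was present in 1 KO-labelled CD8, 12 WT CD8, 1 KO-labelled CD4 and 3 WT CD4 cells.

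**Figure D3:**
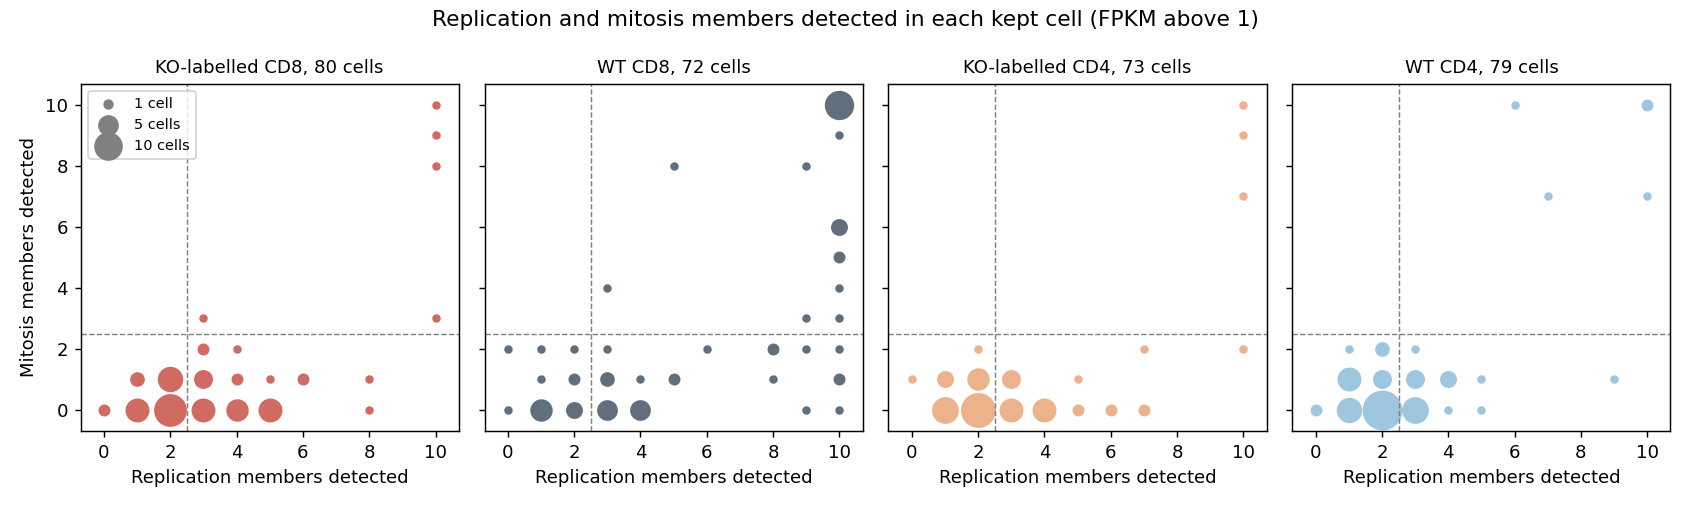
Number of replication members (horizontal axis, of 10) and mitosis members (vertical axis, of 10) detected in each kept cell, by plate, with the area of a point giving the number of cells and dashed lines at the limit of 3. The upper left field is empty on all 4 plates, and 12 WT CD8 cells have all 10 mitosis members, against 1 KO-labelled CD8 cell. Cells with fewer than 3 replication members have at most 3570 genes detected.

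Mitosis-class cells had many genes detected, with medians of 4516 in KO-labelled CD8, 4784 in WT CD8, 5368 in KO-labelled CD4 and 4079 in WT CD4 cells. Across the cells of a plate, Pearson's r between genes detected and mitosis members was 0.67, 0.76, 0.73 and 0.76 in that order, a description over cells that share a library preparation. Without cells above 4000 genes the mitosis class held 1 of 74 KO-labelled CD8 cells (1.35%) and 3 of 46 WT CD8 cells (6.52%). Among cells matched on genes detected it held 5 of 45 KO-labelled (11.1%) and 8 of 45 WT CD8 cells (17.8%). In the same matched cells the replication class held 28 of 45 KO-labelled (62.2%) and 32 of 45 WT CD8 cells (71.1%). Matched CD4 cells gave 25 of 60 on each plate (41.7%).

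**Figure D4:**
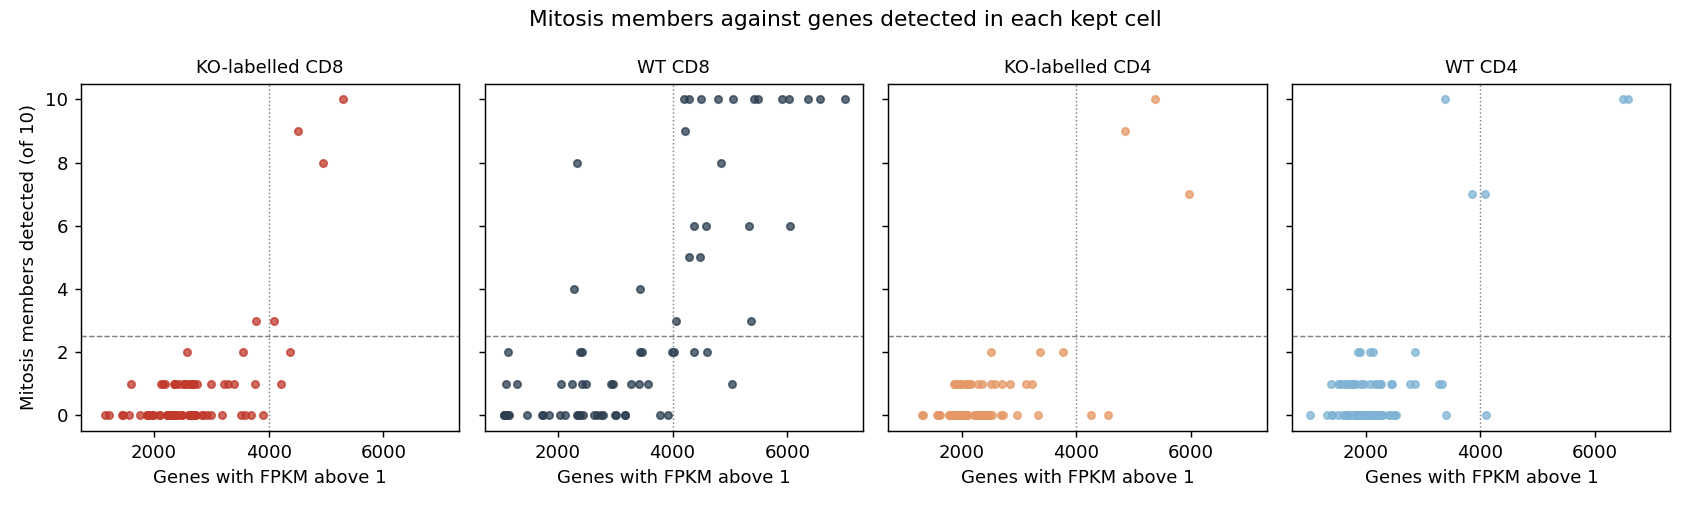
Number of mitosis members (vertical axis, of 10) against the number of genes above FPKM 1 (horizontal axis) for each kept cell, by plate, with a dotted line at 4000 genes and a dashed line at the limit of 3 members. The WT CD8 plate holds 26 cells above 4000 genes and the KO-labelled CD8 plate 6, and most mitosis-class cells lie among them.

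The 39 members that did not define the classes were read in the same cells. Their median share of detection was 86.8% in the 38 mitosis-class cells, 15.7% in the other replication-class cells and 6.21% in the cells of neither class. The median number of genes detected was 4813.5, 2498 and 2059 in the same order. The share over all genes was not computed by class, so these values have no background beside them. In mitosis-class cells Stmn1 and Birc5 were each detected in 97.4%, Mki67 in 94.7% and Top2a in 92.1%. In the other replication-class cells, Mki67 was detected in 5.79%, Top2a in 18.2% and Dut in 34.7%. Cdk4 was detected in 89.5% of mitosis-class cells, 52.1% of the other replication-class cells and 24.8% of those of neither class. The least frequent members in mitosis-class cells were Ccne2, at 42.1%, and Cdc6, at 44.7%. Hmgb2, Tuba1b and Tubb5 were detected in all 38 of these cells, and Tubb5 also in 87.6% of cells of neither class.

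All 38 mitosis-class cells had a CD3 chain. Melanoma markers, of which 7 were read, reached 3 in 0 KO-labelled CD8, 2 WT CD8, 0 KO-labelled CD4 and 0 WT CD4 kept cells, and 1 of those 2 was mitosis-class. All 7 were at 0 in the mitosis-class cells of KO-labelled CD8 and WT CD4, and summed melanoma markers reached at most 142.2 FPKM in those of WT CD8. Dendritic markers reached 3 of 5 in 3 of the 25 mitosis-class WT CD8 cells and in 0 of the other mitosis-class cells. Without every cell that had at least 3 markers of any other type, the mitosis class held 5 of 77 KO-labelled CD8 cells (6.49%) and 21 of 63 WT CD8 cells (33.3%).

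Pdcd1 was detected in 26 of 80 KO-labelled CD8 cells (32.5%), 50 of 72 WT CD8 cells (69.4%), 23 of 73 KO-labelled CD4 cells (31.5%) and 25 of 79 WT CD4 cells (31.6%). All 30 mitosis-class CD8 cells had Pdcd1. In KO-labelled CD8 they were 5 of 26 Pdcd1-detected cells (19.2%, 6.55 to 39.4) and 0 of 54 undetected cells, which allows up to 6.60%. In WT CD8 they were 25 of 50 detected cells (50%, 35.5 to 64.5) and 0 of 22 undetected cells, which allows up to 15.4%. Their Pdcd1 level ranged from 573.02 to 2421 FPKM on the KO-labelled and from 28 to 2823 FPKM on the WT CD8 plate. At least 3 replication members were found in 15 of 26 Pdcd1-detected (57.7%) and 28 of 54 undetected KO-labelled CD8 cells (51.9%), and in 44 of 50 detected (88%) and 10 of 22 undetected WT CD8 cells (45.5%). Whether the plates differ in this was not tested. In WT CD4 the mitosis class held 5 of 25 Pdcd1-detected and 0 of 54 undetected cells, and in KO-labelled CD4 1 of 23 and 2 of 50.

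Genes detected moved with Pdcd1 as well, with medians of 3343 in detected and 2389.5 in undetected KO-labelled CD8 cells, and 4039 and 2155 in WT CD8 cells. Matched on genes detected, 9 WT pairs remained, in which 2 of 9 detected and 0 of 9 undetected cells were mitosis-class and 6 of 9 in each were replication-class. In the 13 KO-labelled pairs no cell was mitosis-class, which at this number allows up to 24.7% in each. Member by member, 58 of 59 were at least 1 unit higher in Pdcd1-detected WT CD8 cells, against 57.5% of all genes, with a median of 3.54. In the matched WT pairs 19 were, against 17.9% of all genes, with medians of 1.12 for mitosis and -0.59 for replication members. In KO-labelled CD8 35 members were at least 1 unit higher, against 23.8%, and in its matched pairs 6, against 12%, a share near that of all genes.

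Tcf7 encodes a transcription factor of naive, memory and precursor T cells. It was found in 48 of 80 KO-labelled CD8 cells (60%), 11 of 72 WT CD8 cells (15.3%), 17 of 73 KO-labelled CD4 cells (23.3%) and 33 of 79 WT CD4 cells (41.8%). In WT CD8 the mitosis class held 0 of 11 Tcf7-detected cells, which allows up to 28.5%. It held 25 of 61 undetected cells (41%, 28.6 to 54.3). In KO-labelled CD8 it held 2 of 48 detected (4.17%) and 3 of 32 undetected cells (9.38%). Those 2 cells had Pdcd1 as well, so that 2 of 9 KO-labelled CD8 cells with both genes were mitosis-class, as were 3 of 17 with Pdcd1 alone. In WT CD8 the same numbers were 0 of 3 and 25 of 47. Replication-class cells were 27 of 48 Tcf7-detected (56.3%) and 16 of 32 undetected KO-labelled CD8 cells (50%), and 7 of 11 (63.6%) and 47 of 61 (77%) WT CD8 cells.

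In WT CD8 cells 54 members were at least 1 unit lower with Tcf7 detected than without, against 28.6% of all genes. In 10 matched pairs 27 members were, against 17% of all genes, with a median of -1.41 for mitosis and -0.29 for replication members, and 0 of 10 detected and 3 of 10 undetected cells were mitosis-class. In KO-labelled CD8 5 members were at least 1 unit lower, against 9.57%, and 4 in 22 matched pairs, against 9.17%. Among these pairs 2 of 22 Tcf7-detected and 0 of 22 undetected cells were mitosis-class, the opposite order to all KO-labelled CD8 cells. In CD4 the mitosis class held 1 of 17 Tcf7-detected and 2 of 56 undetected KO-labelled cells, and 0 of 33 and 5 of 46 WT cells.

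Foxp3 was detected in 42 of 73 KO-labelled CD4 cells (57.5%) and 27 of 79 WT CD4 cells (34.2%), and in 1 of 80 KO-labelled and 0 of 72 WT CD8 cells. Of the 8 mitosis-class CD4 cells 7 had Foxp3. In WT CD4 they were 5 of 27 Foxp3-detected cells (18.5%, 6.30 to 38.1) and 0 of 52 undetected cells, which allows up to 6.85%. In KO-labelled CD4 they were 2 of 42 detected cells (4.76%, 0.582 to 16.2) and 1 of 31 undetected cells (3.23%, 0.0816 to 16.7). All 5 WT cells also had Pdcd1 and none had Tcf7, so they were 5 of the 15 WT CD4 cells with both Foxp3 and Pdcd1. Of the 15 such KO-labelled CD4 cells 0 were mitosis-class, which allows up to 21.8%. Both mitosis-class cells with Foxp3 on that plate lacked Pdcd1.

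Replication-class cells were 17 of 42 Foxp3-detected (40.5%) and 16 of 31 undetected KO-labelled CD4 cells (51.6%), and 13 of 27 detected (48.1%) and 16 of 52 undetected WT CD4 cells (30.8%). Neither difference was tested, and both change direction when the limit is 2 of 10 members. In matched pairs the numbers were 10 of 27 detected and 13 of 27 undetected KO-labelled cells, and 7 of 19 detected and 6 of 19 undetected WT cells. In WT CD4 42 members were at least 1 unit higher with Foxp3 detected, against 24.6% of all genes, and 7 in 19 matched pairs, against 11.2%. In KO-labelled CD4 2 members were, against 5.98%, and 3 in 27 matched pairs, against 9.86%. Median genes detected were 2267.5 in Foxp3-detected and 2123 in undetected KO-labelled cells, and 2404 and 1891 in WT cells. In the matched pairs they were 2308 and 2110 in KO-labelled cells, so matching left a gap there, and 2161 and 2159 in WT cells. In the matched WT pairs 1 of 19 detected and 0 of 19 undetected cells were mitosis-class, so at this number a difference was not detectable.

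**Figure D5:**
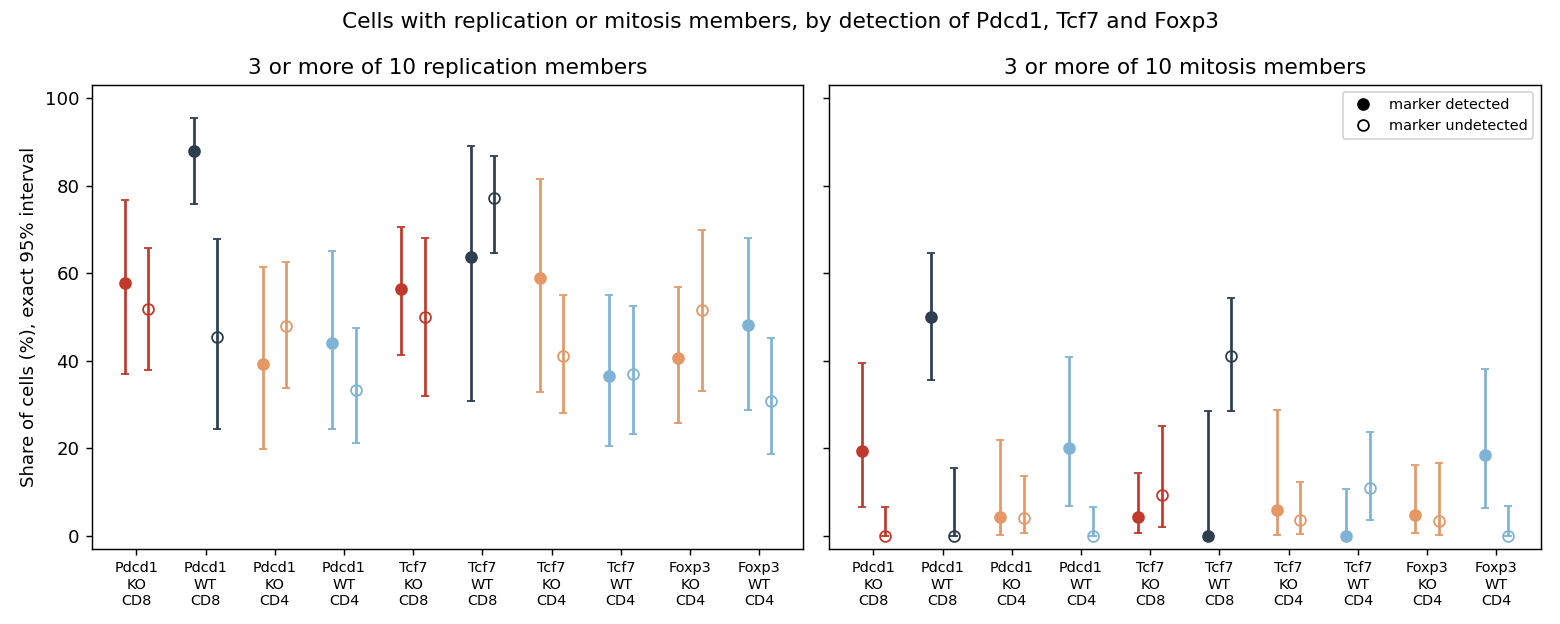
Share of cells (vertical axis, percent, with exact 95% intervals that cover counting error only) with at least 3 replication members (left) and at least 3 mitosis members (right), for cells in which Pdcd1, Tcf7 or Foxp3 was detected (filled) or undetected (open), by plate. The mitosis share is 50% with Pdcd1 and 0 without it in WT CD8 cells.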

How the data were processed

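Single T cells and 1 population well per plate were profiled by Smart-seq2, per the labels' protocols. The deposited values are FPKM per gene symbol after TMM normalization by the authors, per the description in the labels. The submitters' processing notes name RSEM, Bowtie and mm10, and their versions are not given in the sources used here. Each of the 380 columns was tied to a sample by its title, with 0 left over, and 0 pairs were identical. Groups were taken from genotype labels and titles.

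The analysis used Python 3.11.15 with pandas 2.3.3, numpy 2.4.6, scipy 1.17.1 and matplotlib 3.10.9. Cells needed at least 1000 genes above FPKM 1, and genes needed detection in 10% of kept cells of 1 plate. Differences are of log2(FPKM + 1) averaged over kept cells, with a pseudocount of 1, which understates changes of low genes. Shares carry exact Clopper-Pearson 95% intervals, and for a share of 0 the upper end of that interval is the limit given. Intervals and limits cover counting error only. FPKM holds no read counts, so no count test was run. Marker comparisons leave out the marker itself, and matched cells were paired one to one within 10% of genes detected. The direction of differences was checked on cells of a lineage split at random, with the values of chosen genes raised in 1 part. That check covers neither the class shares nor plates that differ in genes detected, and its outcome is not given here.

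The members and lists were chosen with earlier results of these data known. Named with values are the 3 highest genes of each role, the 20 class members described, Mki67, Top2a, and the 5 lowest and 5 highest differences per lineage. Genes that are single exceptions were named after their values were seen. Promoter sequences are from RefSeq on GRCm38.p6, matched by symbol. Alternatives were other pseudocounts, detection limits, class limits, cell filters and matched cells.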

Additional observations from a re-analysis of the deposited data

Results flagged for a closer look

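Differences here are KO-labelled minus WT cells, on the log2(FPKM + 1) scale. For 5 members, all licensing and fork genes, they were at least 0.5 in opposite directions in the CD8 and CD4 plates. Cdk4, a G1/S member, fell just short of this limit, with 1.62 in CD4 and -0.497 in CD8. In CD8 cells 57 of the 59 members were lower, and the share of all genes past this limit was not computed. For Mcm3 the difference was 0.74 in CD4 and -2.69 in CD8, a gap of 3.42. For Mcm5 it was 0.57 in CD4 and -2.93 in CD8, a gap of 3.50. For Pcna it was 0.93 in CD4 and -1.24 in CD8, a gap of 2.17. For Gmnn it was 0.59 in CD4 and -2.52 in CD8, a gap of 3.11. For Lig1 it was 0.69 in CD4 and -2.44 in CD8, a gap of 3.13. With 1 plate in each of the 4 groups none of these gaps was tested. In the CD4 wells Mcm3 alone of the 5 was higher for the KO label, by 0.11.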

How the results depend on the processing

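For CD8 cells the median member difference was -2.59 with a pseudocount of 0.1, -1.08 with 10, -0.44 in cells matched on genes detected and -0.21 without cells above 4000 genes, and the number of members at least 1 unit lower was 31, 9 and 5 under the last 3 of these. In CD4 cells the number at least 1 unit higher was 3 with a pseudocount of 0.1 and 0 with 10. The share of all genes past 1 unit was not computed under these settings.

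Differences in shares follow in percentage points. The CD8 replication difference was -26.0 above FPKM 10, -0.972 from 2 of 10 members, -28.8 from 5 of 10, -11.7 over all 94 cells, -25.8 in cells with at least 2000 genes, -8.89 in matched cells and -10.9 without cells above 4000 genes. The CD4 replication difference, 8.50 between the reported shares, was 9.68 above FPKM 10, 4.77 from 2 of 10, 6.31 from 5 of 10, 3.19 over all 94 cells and 0 in matched cells. The CD8 mitosis difference was -37.2 from 2 of 10, -6.67 in matched cells and -5.17 without cells above 4000 genes, and that of CD4 was -2.67 without the latter cells.

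By Pdcd1, the replication difference in KO-labelled CD8 cells was 18.4 above FPKM 10, 25.5 from 5 of 10, 15.9 with at least 2000 genes, and turned to -4.42 from 2 of 10 and -15.4 in matched cells. In WT CD8 cells it was 40.2 above FPKM 10, 23.8 from 2 of 10, 65.5 from 5 of 10, 22.1 with at least 2000 genes and 0 in matched cells. The matched mitosis difference by Pdcd1 was 0 in KO-labelled and 22.2 in WT CD8 cells. By Tcf7, the replication difference in KO-labelled CD8 cells was 4.17 from 2 of 10 and turned to -6.25 above FPKM 10, -1.04 from 5 of 10 and -0.404 with at least 2000 genes, while the mitosis difference turned to 9.09 in matched cells. In WT CD8 cells the replication difference was -16.8 above FPKM 10, -37.6 from 5 of 10, -28.03 with at least 2000 genes, and turned to 7.30 from 2 of 10. By Foxp3, the replication difference in KO-labelled CD4 cells was -2.84 above FPKM 10, -5.07 from 5 of 10, and turned to 9.14 from 2 of 10, and in WT CD4 cells it was 18.1, 18.4 and -6.55 under the same settings and 5.26 in matched cells. The matched mitosis difference by Foxp3 was 0 in KO-labelled and 5.26 in WT CD4 cells.

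The cause of these shifts was not tested. Of the alternative values, 9 turned in direction and 41 moved past the limits set for them. These were the exact intervals of both reported shares, the quartiles of the members' differences for a median, or 1.5 times for a count. The other 92 stayed within those limits, which are wide and hold shifts as large as that of the matched CD4 replication difference. Some of the 92 could not change. All 59 members passed the detection filter, so dropping it left their counts as they were. In CD4, 0 kept cells had 3 or more melanoma markers, so leaving out such cells changed nothing. The CD4 median, near 0 throughout, was left out of the count of turns in direction. It was -0.01 as reported, 0.04 with a pseudocount of 0.1 and -0.20 in matched cells. Leaving out cells with 3 or more markers of another cell type, a setting chosen after seeing the data, moved the CD8 mitosis difference to -26.8 and the CD8 median to -1.74. Leaving out a replicate was not possible with 1 plate a group. No paired analysis was possible because replicate numbers name single wells and the groups share no paired samples. FPKM without read counts limits what is known of depth, and a transcript at 0 in a cell may have been missed.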
